A study of Mus musculus with 4 samples.

Results

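Esophageal tissue was set against serum in 46-week-old L2-IL-1β mice for all 1265 mouse miRNA probes of a Toray 3D-Gene microarray. These were 2 of the 4 arrays of the series, 1 of RNA from esophagus and 1 of RNA from serum. The other pair, esophagus and serum of 28-week-old mice of the same strain, is used only to give the same difference in other samples. Both ages are labelled Barrett's esophagus, and transgene-free mice were not analysed here. L2-IL-1β mice express human interleukin-1β from the ED-L2 promoter, which is active in the squamous epithelium of the esophagus and forestomach, so inflammation starts from the lining itself. The sources used here do not give the number of mice behind a sample. Tissue RNA came from a mirVana kit and serum RNA from an miRNeasy Serum/Plasma kit, so a difference of kit cannot be told apart from the difference between tissue and serum. With 1 array per side there was no replicate, no SD between mice and no test, and every difference below compares these arrays.

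The net signal of a miRNA was its spot's median intensity minus the mean of the array's BLANK spots, in arbitrary units. A miRNA was counted as above the limit when it exceeded the mean plus 2 SD of the spots without probe, a net signal of 7.57 in esophagus and 7.48 in serum. Of the 1265 probes, 543 were above the limit on both arrays, 135 in esophagus only, 46 in serum only and 541 on neither. Differences are log2 esophagus minus serum, after the arrays were scaled to the same median over the 543, so a positive value means higher in esophagus. They are relative to that median and do not compare absolute amounts of a miRNA in tissue and serum. The scaling was small, since the medians were 34.5 units in esophagus and 35.4 units in serum. The noise SD beside a difference covers only the spread of spots without probe and of spike-in spots on each array.

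MiRNAs are short RNAs that pair with messenger RNAs, mainly through bases 2 to 8 of the mature strand, the seed, and lower their translation and stability. A hairpin precursor gives a 5p and a 3p arm, and often only 1 of them is kept in quantity. The esophageal wall holds squamous epithelium, a stroma with vessels and immune cells, smooth muscle and, in mice, a thick coat of striated muscle. Serum miRNAs lie outside cells, bound to proteins or enclosed in vesicles, and come from blood cells, endothelium, liver and other organs. Erythrocytes and platelets add to them when blood clots or cells lyse.

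The mature sequences of 7 esophageal miRNAs that the results turn on are given first, from RefSeq (build GRCm38.p6), 5′ to 3′ with the seed in capitals. They stand for the muscle, squamous and general epithelial lists.
miR-206-3p: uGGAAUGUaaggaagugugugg
miR-133b-3p: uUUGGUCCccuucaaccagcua
miR-203-3p: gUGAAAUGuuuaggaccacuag
miR-205-5p: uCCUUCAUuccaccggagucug
miR-200b-3p: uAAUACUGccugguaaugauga
miR-200c-3p: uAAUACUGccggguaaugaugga
miR-429-3p: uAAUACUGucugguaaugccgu
The last 3 share a seed, AAUACUG. On the plus strand, miR-206-3p lies at chr1:20679055-20679076, miR-133b-3p at chr1:20682834-20682855 and miR-203-3p at chr12:112130927-112130948. On the minus strand, miR-205-5p lies at chr1:193507503-193507524, miR-200b-3p at chr4:156055685-156055706, miR-429-3p at chr4:156053916-156053937 and miR-200c-3p at chr6:124718324-124718346.

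The mature sequences of 6 serum miRNAs follow. They are shown because miR-451a had the largest difference of all, and because the other 5 fall into 2 groups with the same seed.
miR-451a: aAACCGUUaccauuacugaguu
miR-92a-3p: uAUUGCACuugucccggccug
miR-25-3p: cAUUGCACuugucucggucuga
miR-92b-3p: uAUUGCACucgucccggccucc
miR-501-3p: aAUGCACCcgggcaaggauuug
miR-500-3p: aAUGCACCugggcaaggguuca
The seed is AUUGCAC in miR-92a-3p, miR-25-3p and miR-92b-3p, and AUGCACC in miR-501-3p and miR-500-3p. MiR-451a lies at chr11:78073186-78073207 on the plus strand, miR-25-3p at chr5:138165332-138165353 on the minus strand and miR-92b-3p at chr3:89227126-89227147 on the minus strand. MiR-92a-3p is made at 2 loci, 1 of them at chr14:115044476-115044496 on the plus strand. MiR-501-3p lies at chrX:7241270-7241291 and miR-500-3p at chrX:7237695-7237716, both on the minus strand.

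Of the 543 miRNAs above the limit on both arrays, 43 (7.92%) were at least 4-fold higher in esophagus and 43 (7.92%) at least 4-fold higher in serum. Most differences were small: 338 miRNAs (62.2%) lay within 2-fold, a further 66 were 2- to 4-fold higher in esophagus and 53 were 2- to 4-fold higher in serum. The median difference was 0.11, with quartiles at -0.65 and 0.77. Values above 0 were thus the more common with this scaling. The median was -0.16 with quantile normalization and 0.32 with scaling to the total signal, so the more common sign depends on the scaling. Counts and medians of lists below are to be read against the median, quartiles and shares of all 543 given here. Differences of at least 8-fold were seen for 15 miRNAs toward esophagus and 16 toward serum, and of at least 32-fold for 5 and 2. The 43 esophageal miRNAs had a median net signal of 325 in esophagus, against 37.5 in serum. The 43 serum miRNAs had a median of 28.4 in esophagus, against 231 in serum. Just inside the 4-fold threshold (log2 of 2) lay miR-199a-5p at 2.01 and miR-150-5p at -2.01, and just outside it miR-5099 at 1.94 and miR-181d-5p at -1.97.

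**Figure D1:**
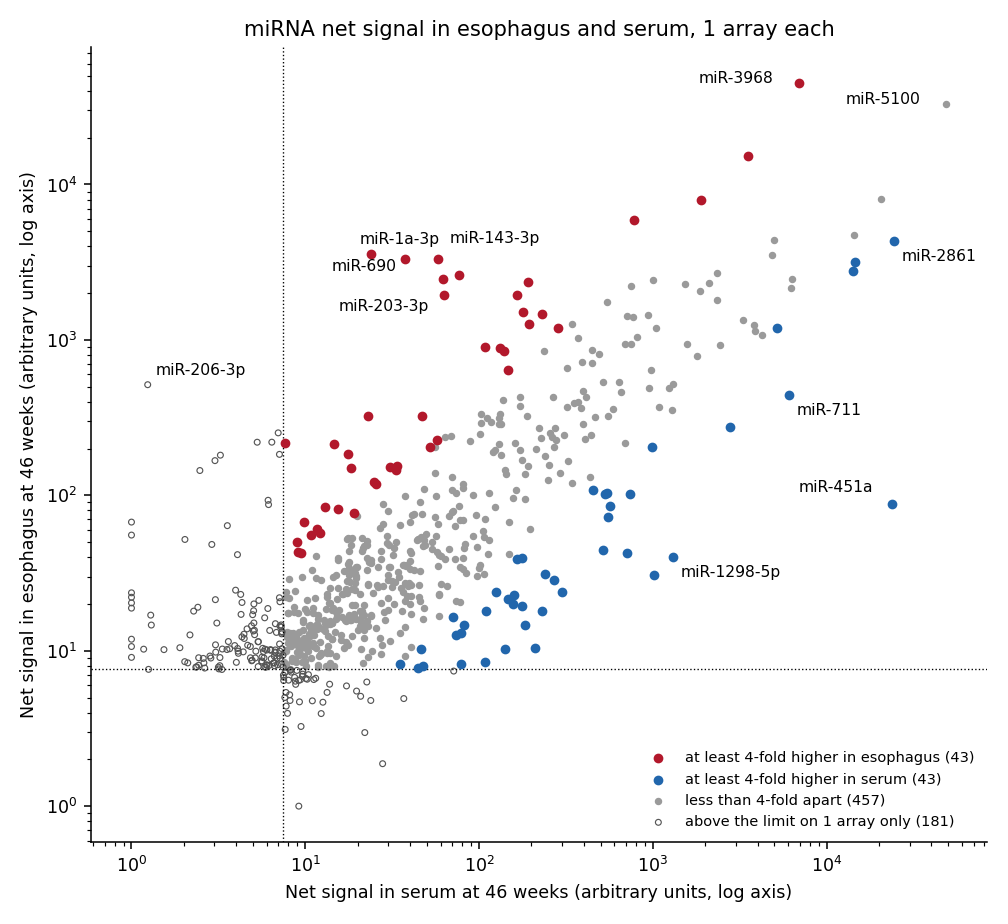
Net signal in esophagus (vertical, arbitrary units, log axis) against serum (horizontal, same units, log axis) at 46 weeks for each miRNA above the limit on at least 1 array. Red and blue points are the 43 miRNAs at least 4-fold higher in esophagus and the 43 at least 4-fold higher in serum, dotted lines are the limits, and signals under 1 are drawn at 1. MiR-1a-3p, miR-690 and miR-143-3p stand far above the cloud at the left and miR-451a far below it at the right.

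MiRNAs of striated muscle were higher in esophagus. MiR-1a-3p, which promotes differentiation of skeletal and cardiac muscle, had a net signal of 3581 in esophagus and 23.9 in serum, a log2 difference of 7.27 (noise SD 0.17), or 154-fold. That difference was 6.56 with the local background subtracted and 5.38 with normexp background correction and quantile normalization. MiR-133a-3p, made from the same transcripts as miR-1a, had 2456 units in esophagus and 61.6 in serum (5.36), and miR-133b-3p had 2628 and 76.6 in the same order (5.14). MiR-206-3p, a skeletal muscle miRNA encoded beside miR-133b, had 515 units in esophagus and 1.24 in serum, where it was not above the limit, so no fold is given. All 3 striated muscle miRNAs above the limit on both arrays were past 4-fold, with a median of 5.36. The remaining 3 members, miR-208a-3p, miR-208b-3p and miR-499-5p, which lie in myosin genes of the heart and slow muscle, had net signals from -2.01 to 3.86 in esophagus and from -0.32 to 2.81 in serum, all under the limit. Some partner arms are not on this list. Among them, miR-208a-5p was higher in serum, with 10.4 units in esophagus and 211 in serum (-4.30). MiR-133a-5p was above the limit in esophagus only, with 55.5 units there.

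The smooth muscle list differed between arms. MiR-143-3p and miR-145a-5p come from 1 cluster that keeps smooth muscle contractile. MiR-143-3p had 3323 units in esophagus and 57.7 in serum, a difference of 5.89 (noise SD 0.12), and miR-145a-5p had 1938 and 166 in the same order, a difference of 3.59. The other arm, miR-143-5p, had 396 units in esophagus and 371 in serum, a difference of 0.13 that turned to -0.13 with normexp background correction and quantile normalization. MiR-145a-3p had 17.98 units in esophagus and 2.28 in serum, under the limit there. Thus 2 of the 3 members above the limit on both arrays were past 4-fold.

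Squamous miRNAs were higher in esophagus. MiR-203-3p, which represses p63 and drives keratinocytes out of the cycle as they stratify, had 1945 units in esophagus and 62.7 in serum, a difference of 4.99 (noise SD 0.12), or 31.9-fold. The spot's own local background was 970 units in esophagus, and with that subtracted the difference was 4.24. MiR-205-5p, an epithelial miRNA of basal keratinocytes, had 1508 units in esophagus and 179 in serum, a difference of 3.11. MiR-31-5p, which keratinocytes express in inflammation and wound repair, had 39.4 and 15.4 units in the same order, a difference of 1.39. These 3 had a median of 3.11, and 2 of them were past 4-fold.

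The epithelial miR-200 family, which holds down the ZEB repressors and so maintains epithelial character, was above the limit in esophagus for 5 of 5 members. Of all 1265 probes, 678 were above the limit there. MiR-200b-3p had 213 units in esophagus and 14.5 in serum (3.91), and miR-200c-3p had 325 and 22.95 in the same order (3.86). The other 3 members were under the limit in serum, namely miR-200a-3p with 220 units in esophagus and 6.42 in serum, miR-141-3p with 183 and 7.10, and miR-429-3p with 87.1 and 6.15. Of the 3 members with the seed AAUACUG, miR-200b-3p and miR-200c-3p thus had near-equal differences and miR-429-3p was above the limit in esophagus only. All members of this list are 3p arms. Of the 5p arms, miR-200b-5p and miR-141-5p were above the limit in esophagus only and miR-200c-5p in serum only. MiR-200a-5p and miR-429-5p were under it on both arrays.

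Columnar and glandular miRNAs, which mark intestinal and glandular epithelium and are of interest in Barrett's metaplasia, gave no 4-fold difference in either direction. Their median was -0.88. MiR-194-5p had 79.5 units in esophagus and 29.9 in serum (1.45). MiR-192-5p, made beside it, had 38.7 and 63.4 (-0.67), miR-215-5p had 20.8 and 45.6 (-1.10), and miR-375-3p, at a level close to the limit, had 8.28 and 21.4 (-1.33). MiR-192-5p and miR-215-5p have the same seed, UGACCUA.

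The list of fibroblasts and stroma was higher in esophagus for 6 of 6 members, with a median of 1.81 and 2 past 4-fold. Both of these were under 4-fold with normexp and quantile normalization. Over all 543 miRNAs the median was 0.11, and 7.92% were past 4-fold toward esophagus. The miR-29 family, which represses collagens, had differences of 1.05 for miR-29a-3p, 1.86 for miR-29c-3p and 2.65 for miR-29b-3p, with 844 units of the last in esophagus and 138 in serum. MiR-199a-5p, a miRNA of mesenchymal cells, had 205 and 52.5 units (2.01), past 4-fold in 3 of 8 other settings, and miR-214-3p, from the same transcript, had 51.4 and 43.6 (0.27). The endothelial miR-126 arms were at 1.07 for 3p and 1.64 for 5p, neither past 4-fold.

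Inflammation-related miRNAs were higher in esophagus for 4 of 4 members, with a median of 2.04. MiR-146a-5p, which NF-κB induces and which damps interleukin-1 signalling through IRAK1 and TRAF6, had 639 units in esophagus and 146 in serum (2.17, noise SD 0.11). Its seed mate miR-146b-5p had 205 and 55.9 (1.91), and miR-155-5p, induced in activated leukocytes, had 42.4 and 9.45 (2.20, noise SD 0.36). The serum signal of miR-155-5p was close to the limit. Its difference had no value with local background and was 0.56 with normexp and quantile normalization. MiR-21a-5p, abundant in inflamed and proliferating tissue, had 2233 and 743 (1.63). The leukocyte list was divided: miR-142-3p was at 1.35 and miR-142-5p at 0.46, while miR-223-3p of myeloid cells was at -1.28, and miR-150-5p of mature lymphocytes was past 4-fold toward serum, with 108 units in esophagus and 449 in serum (-2.01).

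Erythrocyte miRNAs were higher in serum, and miR-451a had the largest difference toward serum. MiR-451a, which is cut by Argonaute2 rather than Dicer and is the main miRNA of red cells, had 88.5 units in esophagus and 23648 in serum, a difference of -8.02 (noise SD 0.11), or 260-fold. It took 0.0346% of the miRNA net signal in esophagus and 7.82% in serum. The probe shared by miR-486-5p and miR-3107-5p had 30.6 units in esophagus and 1013 in serum (-5.01). MiR-144-3p, from the same transcript as miR-451a, had 8.01 units in esophagus, just over the limit, and 47.4 in serum (-2.53, noise SD 0.37). All 3 erythrocyte miRNAs above the limit on both arrays were past 4-fold, and miR-144-5p, with 1.01 and 4.63 units, was under the limit on both.

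Of the liver miRNAs, miR-122-5p, by far the most abundant in hepatocytes, had 107 units in esophagus and 70.0 in serum (0.66), while miR-122-3p was under the limit on both arrays. None of 4 neuronal miRNAs was above the limit in esophagus, and miR-129-5p alone passed it in serum, with 6.63 units in esophagus and 10.1 in serum. None of 3 pancreatic acinar miRNAs passed it on either array. In a bulk sample, fewer cells of a type and less of the RNA per cell cannot be told apart.

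**Figure D2:**
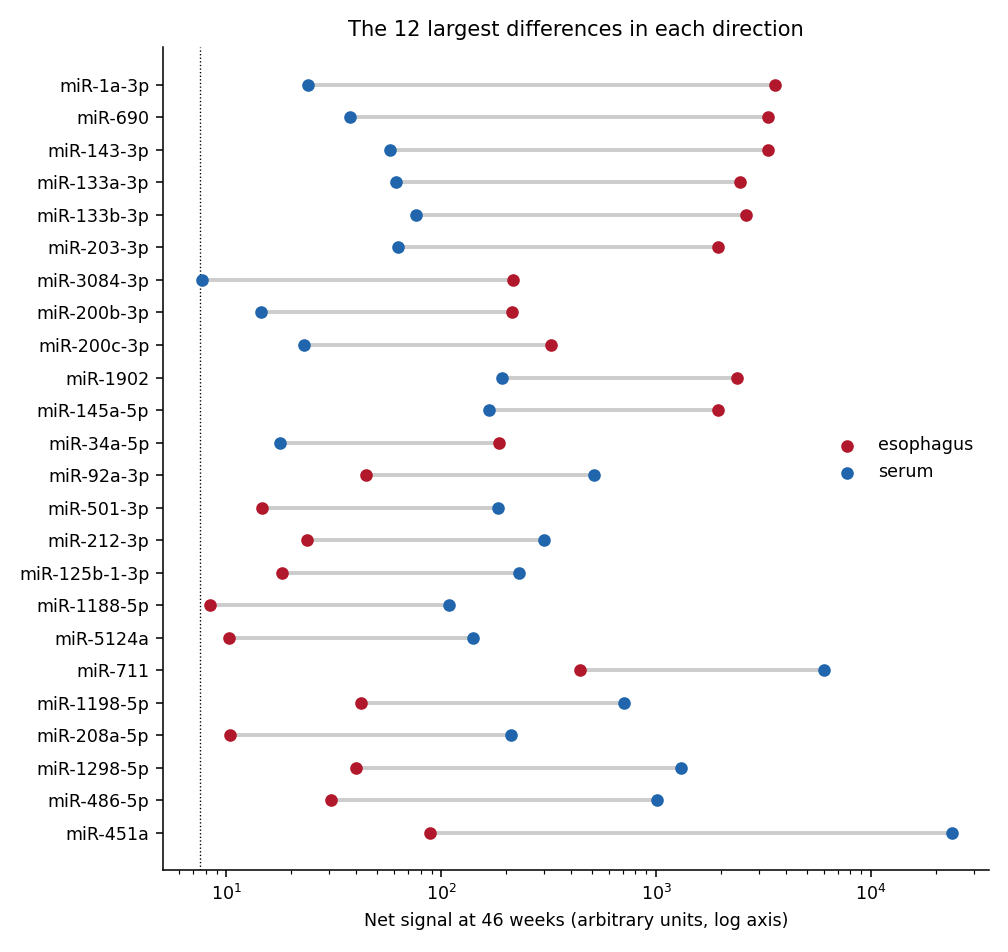
Net signal (arbitrary units, log axis) in esophagus (red) and serum (blue) at 46 weeks for the 12 largest differences in each direction, 1 array per point. The dotted line is the limit in esophagus, and the lower of the 2 signals lies near the limit in several rows, such as those of miR-3084-3p in serum and miR-1188-5p in esophagus.

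Beyond the lists, miR-690 had 3314 units in esophagus and 37.5 in serum (6.51, noise SD 0.14), a difference next to that of miR-1a-3p, and above it with local background (6.64 and 6.56) and with normexp and quantile normalization (5.45 and 5.38). MiR-3084-3p had 216 units in esophagus and 7.67 in serum, only just over the limit (4.85, noise SD 0.43). It had no value with local background, and was under 4-fold, at 1.88, with normexp and quantile normalization. MiR-1902 had 2373 and 191 units (3.68). MiR-34a-5p, a target of p53 that restrains the cell cycle, had 185 and 17.7 units (3.42). These complete the 12 largest differences toward esophagus with the muscle, squamous and miR-200 members named above.

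Toward serum, miR-1298-5p had 39.9 units in esophagus and 1308 in serum (-4.997, noise SD 0.13), and miR-208a-5p had 10.4 and 211 (-4.30), whereas its partner arm miR-208a-3p was under the limit on both arrays. MiR-1198-5p had 42.4 units in esophagus and 708 in serum (-4.02), and miR-711 had 440 and 6061 (-3.75). Dimmer in esophagus were miR-5124a with 10.3 and 141 units (-3.73), miR-1188-5p with 8.41 and 108 (-3.65) and miR-125b-1-3p with 18.1 and 231 (-3.64). MiR-212-3p, whose transcription CREB raises, had 23.8 units in esophagus and 300.1 in serum (-3.62). MiR-501-3p had 14.7 and 184 units (-3.61) and miR-92a-3p 44.7 and 514 (-3.49). Of these 10 miRNAs, 6 had esophageal signals under 25 units, where noise SDs reached 0.35.

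A few probes carried much of the signal on each array. The 5 brightest took 42.6% of the net signal of mouse miRNAs in esophagus and 43.6% in serum. A probe's brightness also depends on its sequence, so these ranks do not order the miRNAs by amount. In esophagus the brightest were miR-3968 (17.5% of the signal), miR-5100 (12.96%), miR-6366, miR-5126 and miR-5097. In serum they were miR-5100 (16.1%), miR-2861, miR-451a, miR-5126 and miR-2137. MiR-3968 had 44622 units in esophagus and 6948 in serum (2.72), and miR-6366 and miR-5097 were also past 4-fold toward esophagus, at 2.15 and 2.09. MiR-2861 had 4305 and 24449 units (-2.47) and miR-2137 was at -2.16. MiR-5100 and miR-5126, bright on both arrays, were at -0.52 and -1.30.

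Of the 135 miRNAs above the limit in esophagus only, 108 had less than 20 units there and 14 more than 50. After miR-206-3p, the brightest were miR-3096b-3p with 252 units in esophagus and 6.98 in serum, miR-200a-3p, miR-1927 with 220 and 5.29, miR-141-3p, miR-3068-3p with 181 and 3.25, miR-1949 with 167 and 3.02, and miR-3096a-3p with 144 and 2.47. MiR-133a-5p, the other arm of miR-133a-3p, had 55.5 units in esophagus and 0.48 in serum. The 46 miRNAs above the limit in serum only were dimmer, with 39 under 20 units and 1 over 50. That was miR-344i, with 7.40 units in esophagus, just under the limit, and 71.4 in serum. The next were miR-5108 with 4.92 and 36.9 units, miR-1955-3p with 1.88 and 27.8, miR-3101-3p with 4.79 and 23.8, miR-3093-5p with 6.29 and 22.6, miR-5710 with 2.97 and 21.99, miR-669f-3p with 5.09 and 20.8, and miR-5624-5p with 5.50 and 19.7.

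**Figure D3:**
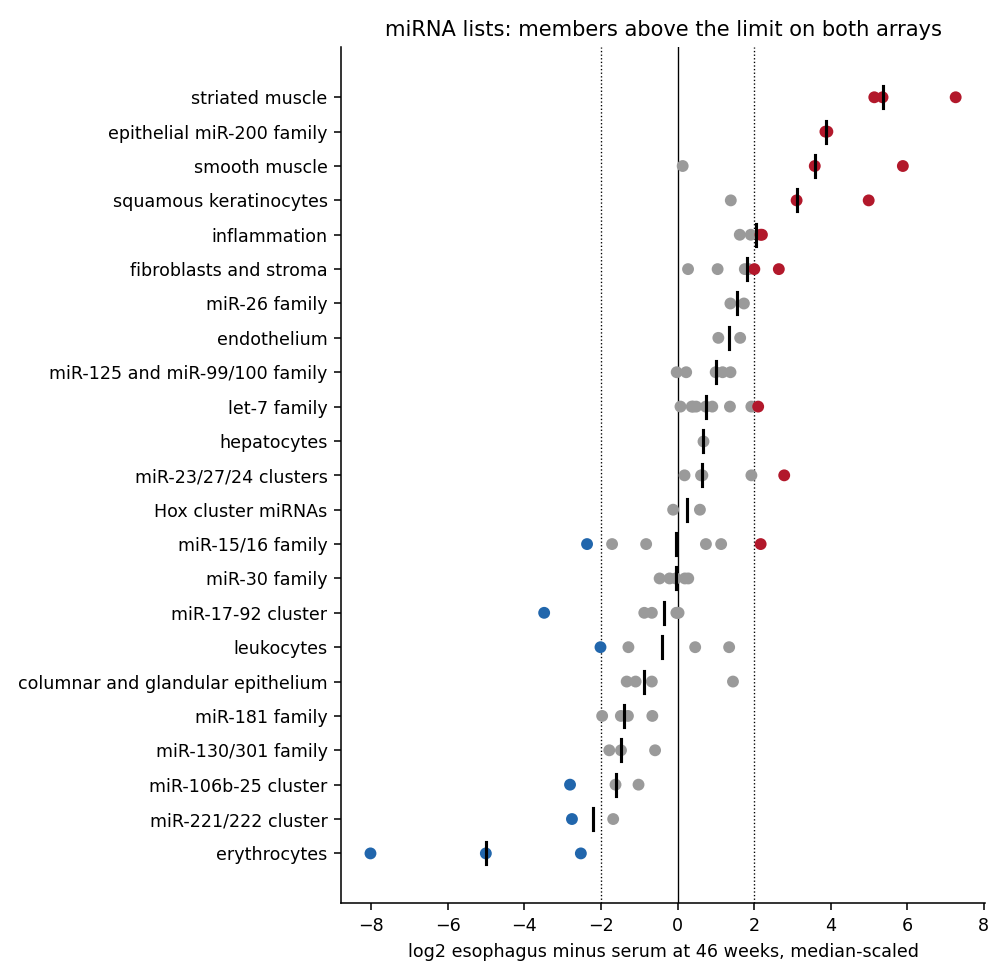
Log2 esophagus minus serum at 46 weeks for the members of each list above the limit on both arrays, 1 point per miRNA, with the list's median as a black bar. Red and blue points are past 4-fold toward esophagus and serum (dotted lines). Striated muscle (median 5.36) stands at the esophageal end and erythrocytes (median -5.01) at the serum end, and the miR-15/16 family has points past 4-fold on both sides.

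Several families of widely expressed miRNAs leaned toward serum. Over all 543 miRNAs the median was 0.11 and the first quartile -0.65, and 7.92% were past 4-fold toward serum. The miR-106b-25 cluster, in an intron of Mcm7, was lower in esophagus for 3 of 3 members: miR-25-3p had 103 units in esophagus and 739 in serum (-2.81), miR-93-5p was at -1.62 and miR-106b-5p at -1.02. Of the miR-17-92 cluster, only miR-92a-3p was past 4-fold. The other 5 members ranged from -0.87 to 0.03, and of these miR-19a-3p, miR-19b-3p and miR-20a-5p changed sign under 1 or more of the other scalings. The pair of miR-221 and miR-222, which targets the cell-cycle inhibitor p27, was at -1.68 for miR-221-3p and at -2.76 for miR-222-3p, with 22.8 units in esophagus and 158 in serum. The miR-181 family was lower in esophagus for 4 of 4 members (median -1.39, or -0.44 with local background and -0.36 with normexp and quantile normalization) and the family of miR-130 and miR-301 for 3 of 3 (median -1.48), none of them past 4-fold.

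The let-7 family, which represses cell-cycle and Ras genes, was higher in esophagus for 9 of 9 members with a median of 0.74, although let-7b-5p, let-7c-5p and let-7i-5p turned negative under quantile normalization. That median lay under the third quartile of all 543 miRNAs, 0.77, and 7.92% of the 543 were past 4-fold toward esophagus. Let-7f-5p was past 4-fold, with 1194 units in esophagus and 285 in serum (2.11), and under it with quantile normalization (1.71) and with normexp (1.65). The miR-26 pair was at 1.73 and 1.38 for miR-26a-5p and miR-26b-5p. Members of the miR-23/27/24 clusters were higher in esophagus for 5 of 5, with miR-23a-3p turning to -0.02 under normexp and quantile normalization. Their median of 0.65 also lay under the third quartile of all 543. MiR-27b-3p, with 884 units in esophagus and 132 in serum (2.79), and miR-27a-3p (1.93) share a seed and lay above their cluster mates, among them miR-24-3p at 0.65. The miR-125 and miR-99/100 list had a median of 0.996 and the pair of miR-10 miRNAs a median of 0.23, while miR-196a-5p was under the limit on both arrays and miR-196b-5p, with 3.95 units in esophagus and 7.90 in serum, was above it in serum only. The miR-30 family stayed near 0, from -0.47 to 0.28, and its median of -0.05 turned to 0.16 with scaling to the total signal and to 0.09 with local background.

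The miR-15/16 family, which represses cyclins and BCL2, was spread over both directions although its members have the same seed. The 4 sequences below show the extremes and 2 cluster mates of them, with the seed AGCAGCA in capitals.
miR-497-5p: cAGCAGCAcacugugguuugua
miR-195a-5p: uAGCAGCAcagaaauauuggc
miR-16-5p: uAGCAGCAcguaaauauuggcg
miR-15b-5p: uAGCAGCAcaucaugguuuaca
MiR-497-5p lies at chr11:70234730-70234751 and miR-195a-5p at chr11:70235062-70235082, both on the plus strand. MiR-15b-5p lies at chr3:69009775-69009796 and miR-16-5p, at 1 of its 2 loci, at chr3:69009918-69009939, both on the plus strand. MiR-497-5p had 145 units in esophagus and 33.0 in serum (2.17, noise SD 0.14), and miR-195a-5p had 213 and 131 (0.74). MiR-16-5p, abundant in blood cells, had 1144 and 3847 (-1.71), and miR-15b-5p had 103 and 543 (-2.36, noise SD 0.11). MiR-15a-5p was at -0.82 and miR-322-5p, clustered with miR-503 on the X chromosome, at 1.14. Both miRNAs of the pair on chromosome 11 were thus higher in esophagus, and both mature miRNAs encoded on chromosome 3 were lower. Mature miR-16-5p also comes from its other locus, so its signal cannot be assigned to the chromosome 3 pair.

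Across the 439 of 543 miRNAs with a RefSeq sequence, 40 seeds were shared by 2 or more miRNAs, 108 miRNAs in all. The seed AUUGCAC had all 3 of its members past 4-fold toward serum, with miR-92b-3p at 20.1 units in esophagus and 156 in serum (-2.92, or -1.45 with normexp and quantile normalization) beside miR-92a-3p and miR-25-3p. The seed AUGCACC had both of its members past 4-fold toward serum, with miR-500-3p at 28.4 and 269 units (-3.20) beside miR-501-3p, and both were under 4-fold with normexp and quantile normalization (-1.73 and -1.72). The seed AAUACUG had both of its members past 4-fold toward esophagus, and both were under it with that alternative (1.55 and 1.995). AGCAGCA was the only one of the 40 with members past 4-fold in opposite directions. Toward esophagus that member was miR-497-5p alone, at 1.07 with normexp and quantile normalization and at 1.997 with quantile normalization without normexp. Members with near-identical sequences can share signal on an array, and how far these probes tell them apart was not tested.

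Both arms of a hairpin were above the limit on both arrays for 95 hairpins, a comparison chosen after the values were seen. The arms had the same sign for 49 hairpins and opposite signs for 46, and for 20 hairpins the 2 differences were at least 4-fold apart. MiR-143 had the widest gap, as given above. MiR-5621 was the only hairpin with its arms past 4-fold in opposite directions: miR-5621-5p had 1478 units in esophagus and 229 in serum (2.73), and miR-5621-3p had 102 and 527 (-2.33). With normexp and quantile normalization miR-5621-5p was under 4-fold, at 1.79, and miR-5621-3p was at -2.32. MiR-125a-3p had 897 units in esophagus and 108 in serum (3.10), whereas miR-125a-5p had 169 and 176 (-0.02). MiR-25-5p was at 1.07 beside miR-25-3p at -2.81, and miR-1188-3p was at 0.20 beside miR-1188-5p at -3.65. MiR-150 was the only hairpin with both arms past 4-fold in the same direction, with miR-150-3p at 8.21 units in esophagus and 79.1 in serum (-3.23). Both arms of miR-150 were under 4-fold with normexp and quantile normalization (-0.99 for 3p and -1.78 for 5p).

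Other shared features were described without a test. Names numbered 1000 or more, given to miRNAs found later and often less well established, made up 37.2% of the 43 esophageal miRNAs and 41.9% of the 43 serum miRNAs, against 38.5% of all 543. The 3p arm was named in 46.5% of the esophageal and 44.2% of the serum miRNAs, against 35.0% of all 543, and the 5p arm in 27.9% of each, against 40.5%.

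The same difference was read in the 28-week arrays, which are other samples but the same pair of extraction kits. There 549 miRNAs were above the limit on both arrays, of which 52 (9.47%) were at least 4-fold higher in esophagus and 29 (5.28%) at least 4-fold higher in serum. Of the 43 esophageal miRNAs at 46 weeks, 42 were above the limit on both 28-week arrays, all 42 with the same sign, and 32 were past 4-fold there too, which is 74.4% of the 46-week list and 61.5% of the 28-week list. Of the 43 serum miRNAs, 38 were above the limit on both 28-week arrays, all 38 with the same sign, and 23 were past 4-fold, which is 53.5% of the 46-week list and 79.3% of the 28-week list. Over the 485 miRNAs above the limit on all 4 arrays, 384 had the same sign at both ages.

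The difference lay within 2-fold of its 28-week value for 396 of the 485 miRNAs and had moved by at least 4-fold for 6. MiR-122-5p moved the furthest: it was at 0.66 at 46 weeks and -4.38 at 28 weeks, with 107 and 20.8 units in esophagus and 70.0 and 591 in serum at these ages. MiR-1a-3p was at 7.27 and 4.06, with 3581 and 3020 units in esophagus and 23.9 and 246 in serum. MiR-133a-3p was at 5.36 and 3.22, with 2456 and 1925 units in esophagus and 61.6 and 282 in serum. In these 3 miRNAs the larger part of the gap between ages lay in the serum signal.

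The squamous miRNAs miR-205-5p and miR-203-3p moved the other way. MiR-205-5p was at 3.11 at 46 weeks and 5.78 at 28 weeks, with 1508 and 1429 units in esophagus and 179 and 35.4 in serum at these ages. MiR-203-3p, which moved by less than 4-fold, was at 4.99 and 6.89, with 1945 and 1638 units in esophagus and 62.7 and 18.7 in serum. MiR-144-3p was at -2.53 and -0.29, with 8.01 and 80.9 units in esophagus and 47.4 and 135 in serum, so that here the esophageal signal moved most. MiR-181d-5p, the last of the 6, was at -1.97 and 0.08, with 9.30 and 9.93 units in esophagus and 37.4 and 12.8 in serum. Differences that hardly moved were those of miR-451a at -8.02 and -8.29, miR-1298-5p at -4.997 and -4.97, miR-200b-3p at 3.91 and 3.93 and miR-3084-3p at 4.85 and 4.89. MiR-1188-5p, with 108 units in serum at 46 weeks, had 7.08 there at 28 weeks, and 8.41 and 7.74 in esophagus, under the 28-week limit of 9.06 there.

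**Figure D4:**
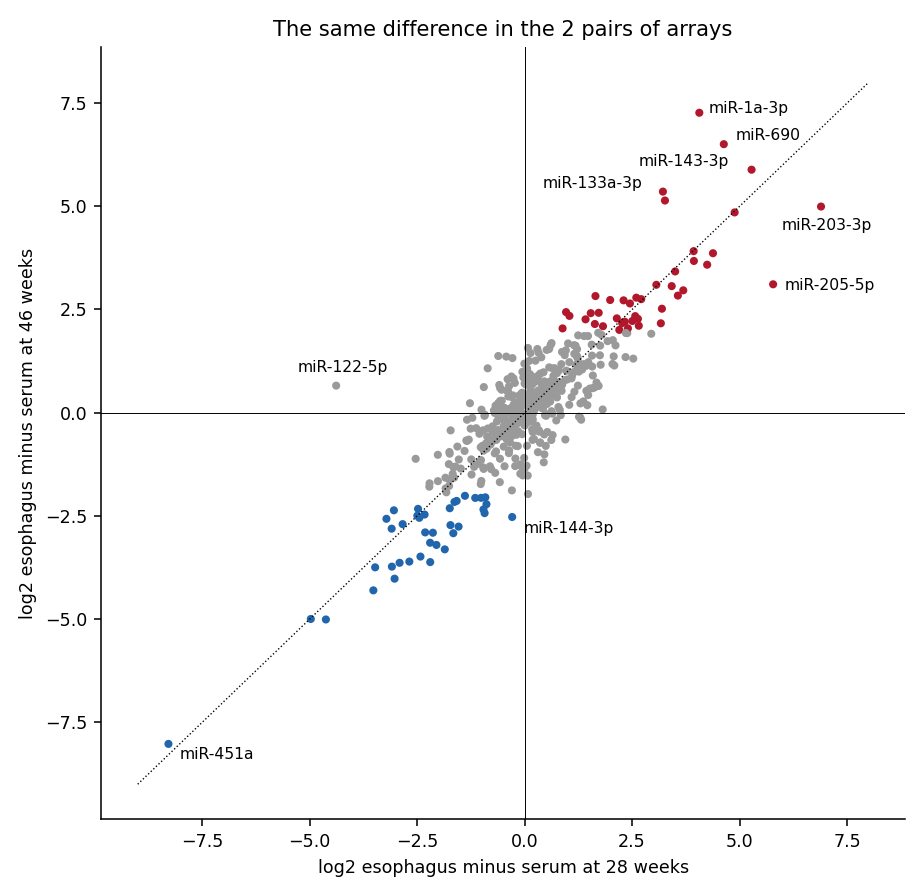
Log2 esophagus minus serum at 46 weeks (vertical) against the same difference at 28 weeks (horizontal) for the 485 miRNAs above the limit on all 4 arrays, with points past 4-fold at 46 weeks in red (toward esophagus) and blue (toward serum) and the line of equal values dotted. Every red and blue point has the same sign at both ages, while miR-122-5p, at 0.66 and -4.38, lies far to the upper left of the line.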

How the data were processed

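The arrays read 1 colour (dye Hy5, per the labels). The deposited scanner files hold, per the file headers, each spot's median intensity at 635 nm and the intensity around it, joined from 3 scanner gains and neither background-corrected nor normalized. Each array has 3200 spots: 1265 mouse miRNA probes, 1664 BLANK spots, 97 spots without probe (No Probe), spike-ins and others. The authors' deposited value table holds linear intensities. Set against the scanner values it is the spot intensity minus 56.3 (esophagus) and 52.8 (serum), close to the BLANK means of 56.4 and 52.9, scaled so that the median is 25, for 1035 and 943 miRNAs. The rule that left out the others was not stated.

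The BLANK mean was subtracted, probes above the mean plus 2 SD of spots without probe on both arrays were median-scaled, and log2 esophagus minus serum was taken. This differs from normexp with offset 50 and quantile normalization, which was an alternative. Signal above BLANK that spots without probe share draws the differences of dim miRNAs toward 0. The noise SD joins the SD of spots without probe (1.91 in esophagus, 2.21 in serum) with the variation of spike-ins (5.11% and 5.24%). The number of arrays limits the precision. No test was made.

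Members and lists were chosen with earlier results of these data known. Named were the 12 largest differences of at least 4-fold per direction, the 8 brightest miRNAs above the limit on 1 side only, the 5 brightest per array, and members of 25 lists (107 miRNAs, all on the array), with older array names matched by arm. RefSeq sequences were matched by name. Only 76.7% of the 43 esophageal miRNAs matched, under the 80% required, so a comparison of GC content and length was void. Scripts were tested on simulated data. In that simulation the median scaling was off by a constant, so the known differences were read against the unchanged probes. The tools were R 4.3.3 with limma 3.58.1 and jsonlite 2.0.0, and Python 3.11.15 with numpy 2.4.6, pandas 2.3.3, matplotlib 3.10.9 and scipy 1.17.1.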

Additional observations from a re-analysis of the deposited data

Results flagged for a closer look

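Spots named S-Probe, whose targets the files do not name, are outside the miRNA comparison. Of 22 such spots, 16 were above the limit in esophagus and 3 in serum. The 3 brightest in esophagus were S-Probe1014 with a net signal of 4883, S-Probe1018 with 1083 and S-Probe1019 with 142, against 74.6, 6.93 and 4.10 in serum. The 3 above the limit in serum were S-Probe1007 with 69.4 units in esophagus and 206 in serum, S-Probe1014 with 74.6 in serum, and S-Probe1004 with 17.4 in esophagus and 9.84 in serum. S-Probe1014 and S-Probe1018 had 4147 and 1153 units in esophagus at 28 weeks.

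For 11 named miRNAs the sign of esophagus minus serum at 46 weeks was opposite to that at 28 weeks. There was 1 pair of arrays at each age, and the change was not tested. Opposite signs were not particular to these, since only 384 of the 485 miRNAs above the limit on all 4 arrays kept theirs. MiR-122-5p was at 0.66 at 46 weeks and -4.38 at 28 weeks. MiR-181d-5p was at -1.97 and 0.08, miR-181a-5p at -0.66 and 0.18, and miR-223-3p at -1.28 and 0.05. The 28-week values of miR-181d-5p and miR-223-3p lay within 1 noise SD of 0 (0.35 and 0.09), so their sign there is not readable. MiR-10a-5p was at -0.12 and 1.29 and miR-125a-5p at -0.023 and 0.64. In the miR-30 family, miR-30d-5p was at -0.47 and 0.19, miR-30c-5p at -0.21 and 0.15, and miR-30e-5p at -0.047 and 0.19. MiR-143-5p was at 0.13 and -0.21, and miR-19b-3p at 0.026 and -0.08, a gap no wider than its noise SDs of 0.11 and 0.09 together. At 46 weeks miR-125a-5p and miR-30e-5p lay within 1 noise SD of 0 (0.11 each) and miR-10a-5p at about 1 (0.11), and scaling to the total signal turned their 46-week values to 0.18, 0.16 and 0.09.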

How the results depend on the processing

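Against 43 and 43 miRNAs at least 4-fold higher in esophagus and in serum, normexp with local background, offset 50 and quantile normalization gave 16 and 16, all among the 43 of each direction; this setting changes background, offset and normalization together, and their shares in the fall were not tested. At 2-fold the counts were 109 and 96, and at 8-fold 15 and 16. All other settings gave 36 to 59 toward esophagus and 29 to 50 toward serum. Scaling to the total signal gave 51 and 35 and moved the median difference by 0.21, and quantile normalization gave 36 and 45 and moved it by -0.23. Local background gave 37 and 29 of 435 compared, and 55 and 49 of 873 compared were past 4-fold in the authors' deposited value table. Subtracting the mean of spots without probe, an alternative chosen after seeing the data, gave 51 and 47. In the 8 settings of scaling, background or processing, each of the 86 miRNAs kept its sign wherever it had a value, and 15 and 15 stayed past 4-fold in all 8. With the limit at the BLANK mean plus 2 SD, 163 miRNAs were in esophagus only and 77, against 46, in serum only. The cause was not tested. With normexp, named miRNAs under 4-fold toward esophagus were miR-200b-3p (1.55), miR-200c-3p (1.995), miR-34a-5p (1.62), miR-3084-3p (1.88), miR-5621-5p (1.79), miR-146a-5p (1.52) and miR-155-5p (0.56). So were miR-497-5p (1.07), let-7f-5p (1.65), miR-29b-3p (1.81) and miR-199a-5p (1.22). Toward serum they were miR-144-3p (-0.69), miR-150-3p (-0.99), miR-2137 (-0.99), miR-1188-5p (-1.37), miR-92b-3p (-1.45), miR-5124a (-1.57) and miR-222-3p (-1.58). Also under 4-fold with normexp were miR-501-3p (-1.72), miR-500-3p (-1.73), miR-125b-1-3p (-1.77) and miR-150-5p (-1.78), the last at -1.81 with scaling to the total signal. With quantile normalization alone miR-146a-5p (1.82), miR-155-5p (1.95), miR-497-5p (1.997), let-7f-5p (1.71), miR-199a-5p (1.82) and miR-2137 (-1.49) were also under 4-fold. List medians with normexp were 1.77 for the miR-200 family, 1.15 for fibroblasts and stroma, 0.98 for inflammation, -0.18 for columnar and glandular epithelium and -0.71 for the family of miR-130 and miR-301. Signals near the limit bound what can be read for the 541 miRNAs under it on both arrays. No paired analysis was possible because each group has 1 array, and leaving out a replicate was not possible for the same reason.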
